A study of Bos taurus with 4 samples.

Results

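Bovine granulosa cell pools were compared by their level of OVGP1, the gene of oviductal glycoprotein 1. The measured level of OVGP1 chose the groups: pools 1, 2, 4, 6 and 8 (5 of 8 pools) were bright for it and are called OVGP1-high, and pools 3, 5 and 7 (3 of 8 pools) lay near the negative controls and are called OVGP1-low. The OVGP1 difference is therefore given as a description, and so is every other gene's difference between these pools, with no test. Granulosa cells surround the oocyte within the follicle and make oestradiol and inhibin. The study asked how their transcripts differ between Holstein donors of mostly competent oocytes (good donors) and donors of mostly incompetent ones (poor donors). All pools came from cows of 1 commercial embryo production facility (94 cows in the design text) after ovarian stimulation and coasting, a gonadotrophin-free interval before collection, and all are labelled Holstein, granulosa cells and in vitro. Amplified RNA was hybridised to 4 two-colour arrays, each with a pool from good and a pool from poor donors.

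The OVGP1-high pools were good-donor pools 1 and 2 in Cy5, good-donor pool 4 in Cy3, poor-donor pool 6 in Cy3 and poor-donor pool 8 in Cy5. The OVGP1-low pools were good-donor pool 3 in Cy3, poor-donor pool 5 in Cy3 and poor-donor pool 7 in Cy5. Array 1 held pools 1 and 5 and was the only array with a pool of each kind. Array 2 held the OVGP1-high pools 2 and 6, array 3 the OVGP1-low pools 7 and 3, and array 4 the OVGP1-high pools 8 and 4. The labels do not say how many or which cows entered a pool, so it is unknown whether pools are replicates of separate animals. Each pool is counted as 1 in the sample sizes below, and precision is limited by the number of arrays. A two-sided Fisher's exact test of OVGP1 class against donor group gave p = 1, with 3 good and 2 poor pools in the OVGP1-high group and 1 good and 2 poor pools in the other. The same exact test against dye also gave p = 1, with 2 Cy3 and 3 Cy5 pools against 2 Cy3 and 1 Cy5 pools. With 8 pools the smallest p this test can give is 0.143. Each array paired a good with a poor pool and a Cy3 with a Cy5 pool, and the test ignores this pairing. Only array 1 held pools of different OVGP1 class, so the test cannot decide on either association.

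OVGP1 encodes a glycoprotein that the secretory cells of the oviduct epithelium release under oestrogen, and that binds the egg coat and early embryo. It belongs by sequence to the chitinase family without being an active chitinase. In the oviduct these secretory cells alternate with multiciliated cells, whose motile cilia beat through dynein motors on a microtubule axoneme. A program led by factors such as FOXJ1, RFX2, RFX3 and MYB switches on the axoneme genes during their formation.

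Levels are normalized log2 intensities per pool, and the lower quartile of all probes lay at 6.30 to 6.31 in every pool. Above background means a raw intensity more than 2 SD over the mean of the negative controls, which held for 64.2% to 72.7% of probes per pool. An offset of 50 was added to each intensity, which compresses dim levels, so that folds of genes dim in 1 group are understated. A gene was called higher or lower where the levels of the 5 OVGP1-high pools and the 3 OVGP1-low pools did not overlap and the means differed by at least 2-fold.

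OVGP1 stood at 11.30, 10.42, 9.88, 10.96 and 12.42 in pools 1, 2, 4, 6 and 8, and at 6.75, 6.77 and 6.46 in pools 3, 5 and 7. The groups were far apart, with pool 4 the dimmest of the first and pool 5 the brightest of the second, and pool 8 was the brightest of all. The mean was 10.995 ± 0.96 (SD, n = 5) against 6.66 ± 0.17 (SD, n = 3), a difference of 4.33 or 20.2-fold, and of 3.35 with mean in place of median spot intensities. Raw intensities were 2001, 1098, 1176, 3250 and 3876 against 137, 158 and 48. The probe was above background in pools 3 and 5, where the threshold was 106 and 109, and not in pool 7, where it was 49. The difference was 3.66 among the Cy3 pools. Among the Cy5 pools it was at least 4.92, a bound because the 1 OVGP1-low Cy5 pool was not above background. On array 1 the ratio of pool 1 over pool 5 was 4.53, and 4.67 in the ratio that the authors deposited for that array. A single probe measured OVGP1, so no second probe bears on it.

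The cells had the markers of granulosa cells in both groups. FSHR, the receptor for follicle-stimulating hormone, ranged from 10.50 to 10.81 in the OVGP1-high pools and from 10.13 to 10.76 in the OVGP1-low pools. Aromatase, encoded by CYP19A1, stood between 12.62 and 13.50 against 12.75 to 13.57, and the inhibin subunit INHA between 14.41 and 16.10 against 14.18 to 15.73. These 3 genes were bright in all 8 pools, and the groups overlapped for each. FOXL2, a transcription factor of granulosa identity, was dim throughout, at 6.67 to 6.89 against 6.34 to 6.84.

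**Figure D1:**
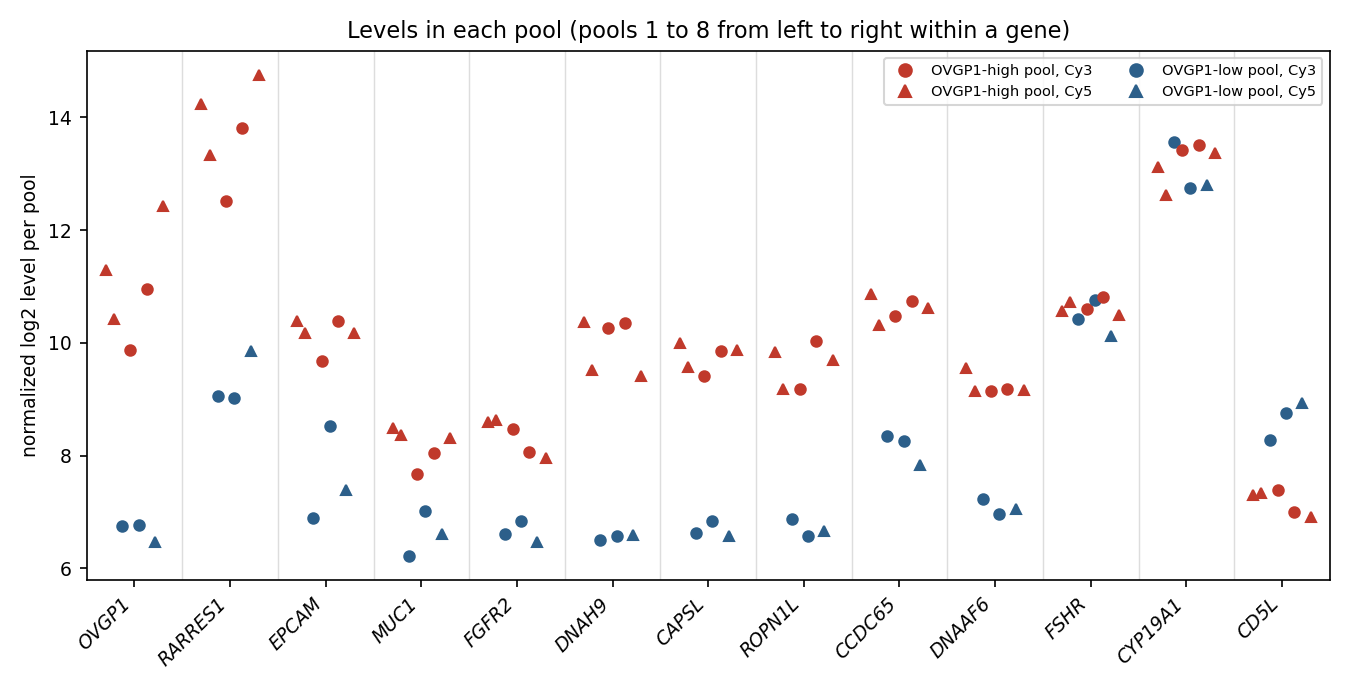
Normalized log2 level (vertical axis) of 13 genes in each of the 8 pools, drawn from pool 1 at the left to pool 8 at the right within each gene; red marks OVGP1-high pools, blue OVGP1-low pools, circles Cy3 and triangles Cy5. OVGP1, RARRES1, DNAH9 and CAPSL leave a wide gap between red and blue points, FSHR and CYP19A1 overlap, and CD5L runs the other way.

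Across the 12667 genes measured, 64 genes were called higher in the OVGP1-high pools (0.505% of genes), OVGP1 included, and 1 gene was called lower (0.00789%). Without the fold limit, 426 genes did not overlap with the OVGP1-high pools above (3.36%), and 229 did not overlap with these pools below (1.81%). The rule sorted the pools by 1 gene of the same contrast, so nothing is read from these shares. With mean in place of median spot intensities 21 genes were called higher and none lower, and 37 were called higher among probes above background in all 8 pools. Of the named genes called higher other than OVGP1, all 19 had smaller differences with mean intensities, from 0.46 to 4.12. Differences of the 64 genes had a median of 1.56 and reached from 1.01 for ENKUR to 4.42 for RARRES1. Just outside the limit lay SPDEF at 0.99 and RSPH4A at 0.97, and just inside it ENKUR and SERPINA1, at 1.01 and 1.03; these 4 genes were picked for their distance from the limit. In bulk RNA, fewer cells of a type and less RNA per cell cannot be told apart. The lists that follow describe 16 of the 64 genes as motile cilia genes and 6 as epithelial genes, and 42 genes are in neither. These counts are of list membership only. The 42 include OVGP1 itself, and also IQCA1 and CFAP299, cilia-linked genes that the lists leave out.

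All 64 genes had higher means in the OVGP1-high pools within Cy3, within Cy5 and on array 1. These values come from the pools that chose the genes and are no independent check. On array 1 the ratios of pool 1 over pool 5 ranged from 0.74 to 5.22 with a median of 1.76, and 59 of the 64 were at least 1. The same genes had median ratios of -0.38, 0.04 and 0.17 on arrays 2, 3 and 4, where both pools were of 1 kind. For 55 of the 64 genes the ratio stayed under 1 in size on all of arrays 2, 3 and 4. OVGP1 and RARRES1 were among the exceptions, at 2.55 and 2.24 for pool 8 over pool 4.

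**Figure D2:**
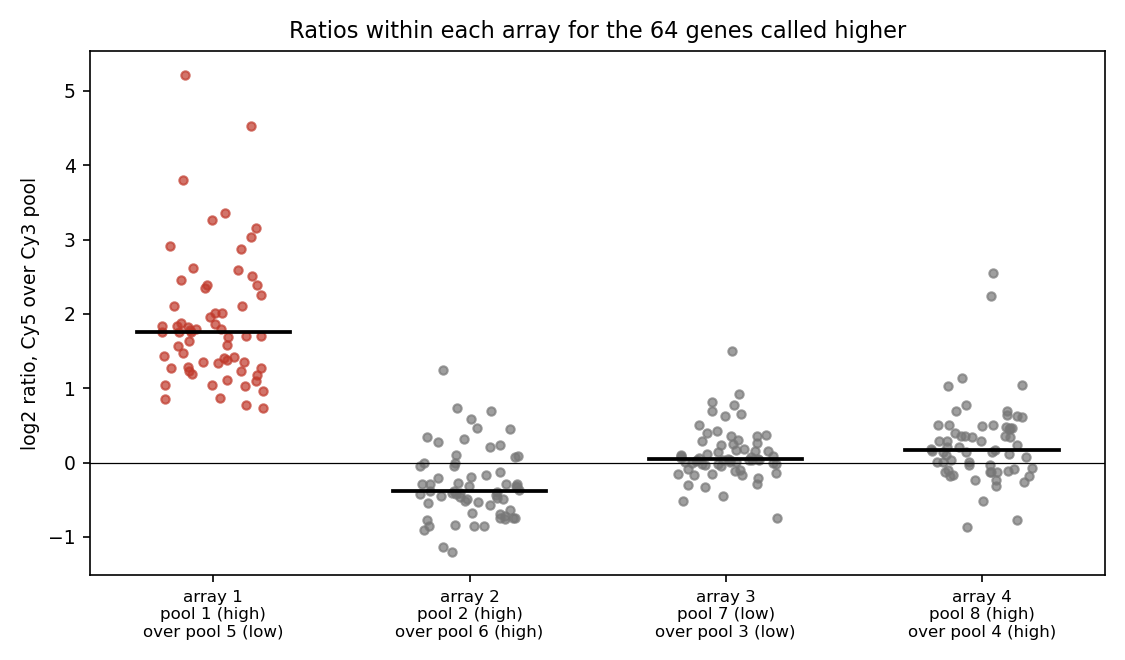
Log2 ratio of the Cy5 pool over the Cy3 pool (vertical axis) within each of the 4 arrays for the 64 genes called higher; each point is a gene and the bar is the median. Array 1, with a pool of each kind, has a median of 1.76, and the medians of arrays 2, 3 and 4 lie between -0.38 and 0.17.

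RARRES1, a retinoic acid responsive membrane protein gene, had the widest difference of all genes. Its levels were 14.25, 13.33, 12.52, 13.82 and 14.76 in pools 1, 2, 4, 6 and 8, and 9.05, 9.03 and 9.86 in pools 3, 5 and 7. No OVGP1-low pool came near an OVGP1-high one, and the order within the OVGP1-high pools was that of OVGP1, from pool 8 down to pool 4. The means were 13.73 ± 0.86 (SD, n = 5) and 9.31 ± 0.47 (SD, n = 3), 21.4-fold apart. Its probe was above background in all 8 pools, unlike that of OVGP1, so this difference was measured at both ends.

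The epithelial adhesion molecule EPCAM stood at 10.39, 10.17, 9.67, 10.38 and 10.17 in the OVGP1-high pools and at 6.89, 8.53 and 7.39 in pools 3, 5 and 7. Pool 5 lay between the others of its kind and the OVGP1-high pools, without overlap. The means were 10.16 ± 0.29 and 7.61 ± 0.84 (SD), a difference of 2.55. A second EPCAM probe had a difference of 0.03, so the 2 probes disagreed. The mucin gene MUC1, whose product coats the free surface of epithelia, stood at 8.48, 8.37, 7.67, 8.05 and 8.32 against 6.22, 7.01 and 6.60, a difference of 1.57. Pools 3 and 7 were lowest and pool 5 next, again without overlap. FGFR2, a receptor for fibroblast growth factors, stood at 8.59, 8.64, 8.48, 8.06 and 7.96 against 6.61, 6.84 and 6.46, a difference of 1.71. Desmoplakin (DSP), which anchors keratin at desmosomes, differed by 1.82 and the tetraspanin TSPAN1 by 1.55.

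These 6 genes, RARRES1, EPCAM, DSP, FGFR2, MUC1 and TSPAN1, were the called members among the 38 measured genes of the oviduct and ovarian surface epithelium list (15.8%, beside 0.505% of all genes). The list was chosen with earlier results of these data known, so this share is a description and no independent support. In that list 10 genes did not overlap with the OVGP1-high pools above (3.36% of all genes did so), 1 did not overlap with them below (1.81% of all genes), and 27 overlapped. The list's median difference was 0.14, against 0.00091 over all genes measured. It was 0.036 with mean intensities, 0.087 without pool 2 and 0.22 without pool 6. Defining genes were among those that overlapped. PAX8, a transcription factor of secretory oviduct cells, lay at 6.66 to 6.84 against 6.46 to 6.96, close to the dimmest probes. Levels of the secreted protein gene WFDC2 were 8.86, 8.29, 7.84, 7.84 and 7.45 against 6.53, 7.96 and 7.04, a difference of 0.88. There pool 5 exceeded pools 4, 6 and 8. Mesothelin (MSLN) and the keratin KRT7 differed by 0.56 and 0.71, and pool 5 stood within the OVGP1-high range for both.

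The keratins differed from each other in their order across pools. KRT8, a keratin of simple epithelia that granulosa cells can also make, stood at 13.96, 13.09, 12.83, 13.11 and 12.35 against 11.08, 12.92 and 15.47. Its lowest and its highest level were both in OVGP1-low pools, 3 and 7. KRT18, the partner of KRT8 in filaments, had the same extremes, at 8.48 in pool 3 and 12.79 in pool 7. It differed by -0.83 between the means, and by 0.43 without pool 7. KRT19 differed by 0.21, with pool 5 at 14.14 beside pools 1 and 2 at 14.10 and 14.16. No probe carried the symbol PAX2. CDH1 and ESR1 were on the array, but neither had a probe kept, which took at least 3 of 8 pools above background.

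Of the motile cilia genes, 86 were measured, and 16 of them were called higher (18.6%, beside 0.505% of all genes) and none lower. A total of 42 did not overlap with the OVGP1-high pools above (48.8%, beside 3.36% of all genes), none did so below (1.81% of all genes), and 44 overlapped. The mean was higher in the OVGP1-high pools for 75 of 86 genes, against 50.2% of all genes, and the median difference was 0.25. The mean level over the 86 genes was 7.55 to 7.75 in the OVGP1-high pools and 7.08 to 7.11 in the OVGP1-low pools. The lists, chosen with earlier results of these data known, name 152 genes, of which 99 were on the array. A gene could enter the 86 through the OVGP1-high pools alone, since 3 pools above background were enough. This held for 10 of the 86, which were above background in no OVGP1-low pool, beside 162 of all 12667 genes. The shares above include these 10 genes. With probes above background in all 8 pools the median was 0.17, and with mean intensities 0.11. The counts for the groups of cilia genes that follow stand beside the same shares of all genes, 0.505% called higher and 3.36% not overlapping above.

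Dynein arms are the motors of the axoneme, and 20 of their genes were measured, 3 of them called higher (beside 0.505% of all genes), with a median of 0.19, or 0.083 with mean intensities. DNAH9, an outer arm heavy chain, stood at 10.37, 9.53, 10.27, 10.36 and 9.41 in pools 1, 2, 4, 6 and 8 and at 6.50, 6.57 and 6.59 in pools 3, 5 and 7. The OVGP1-low pools lay close together near the dimmest probes, and pool 8, the brightest for OVGP1, was the dimmest of its kind for DNAH9. The difference of means was 3.43, or 10.8-fold, and 2.30 with mean intensities. DNAAF6, which helps assemble dynein arms before transport into the cilium, stood at 9.56, 9.14, 9.14, 9.18 and 9.15 against 7.22, 6.97 and 7.05, a difference of 2.16. Except for pool 1, the OVGP1-high pools were nearly level with each other. DNAI3, an intermediate chain gene that was not above background in any OVGP1-low pool, was at least 2.59-fold higher. DNAI1, a further intermediate chain, differed by 0.39 without overlap. DNAI3 and DNAI1 are named here with their values known.

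Radial spokes, the central pair and nexin links regulate the dyneins, and 25 of their genes were measured. Of these, 3 were called higher (beside 0.505% of all genes) and 15 did not overlap with the OVGP1-high pools above (beside 3.36%). Their median was 0.44, and 0.22 with probes above background in all 8 pools and 0.12 with mean intensities. ROPN1L, a radial spoke component first known from sperm tails, stood at 9.83, 9.18, 9.18, 10.03 and 9.69 against 6.87, 6.57 and 6.66. CCDC65, a nexin link protein also called DRC2, stood at 10.86, 10.32, 10.47, 10.74 and 10.62 against 8.35, 8.25 and 7.83. Both left a gap between the groups, with differences of 2.88 and 2.46, and CCDC65 was above background in every pool. The central pair gene SPAG6 differed by 1.19, and by 0.067 for its other probe. DRC1, another nexin link gene, stayed just under the fold limit at 0.91.

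Among the 31 tektin, inner junction and other axonemal genes, 8 were called higher (beside 0.505% of all genes). The median was 0.37, and 0.12 with probes above background in all 8 pools and 0.15 with mean intensities. CAPSL, a calcium-binding protein of the calcyphosine family, stood at 10.00, 9.57, 9.42, 9.85 and 9.88 against 6.62, 6.84 and 6.57. The 5 OVGP1-high pools lay close together, and the difference was 3.06, or 8.37-fold, and 2.08 with mean intensities. SPACA9, a microtubule protein inside the axoneme, differed by 1.88, and by 0.091 for its other probe. MORN5 differed by 0.82. TPPP3, TEKT1 and CAPS, used as markers of ciliated epithelium, differed by 1.71, 1.46 and 1.22, all without overlap. SPAG6, at 1.19, is in the same marker set. The set's other markers, FOXJ1, MCIDAS, CCNO, DNAI1, RSPH1 and PIFO, were not among the genes called higher. That statement does not separate genes measured without a call from genes not measured. DNAI1, described above, did not overlap, and FOXJ1 differed by 0.03 with overlap.

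Regulators of multiciliation varied. MYB, a transcription factor active early in ciliated cell formation, stood at 8.24, 7.59, 7.88, 8.01 and 7.75 against 6.31, 6.13 and 6.74, a difference of 1.499 without overlap. RFX2, a factor that binds the promoters of cilia genes, differed by 1.18, but its 2 other probes differed by -0.07 and 0.01. FOXJ1, the master factor of motile cilia, lay at 6.37 to 6.55 against 6.41 to 6.46 and RFX3 at 6.30 to 6.56 against 6.32 to 6.92. The groups overlapped for both, at levels close to the lower quartile of all probes. FOXJ1 was above background in all 5 OVGP1-high and all 3 OVGP1-low pools, and RFX3 in 3 and 2 of them. The 10 measured regulators had a median difference of 0.11.

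**Figure D3:**
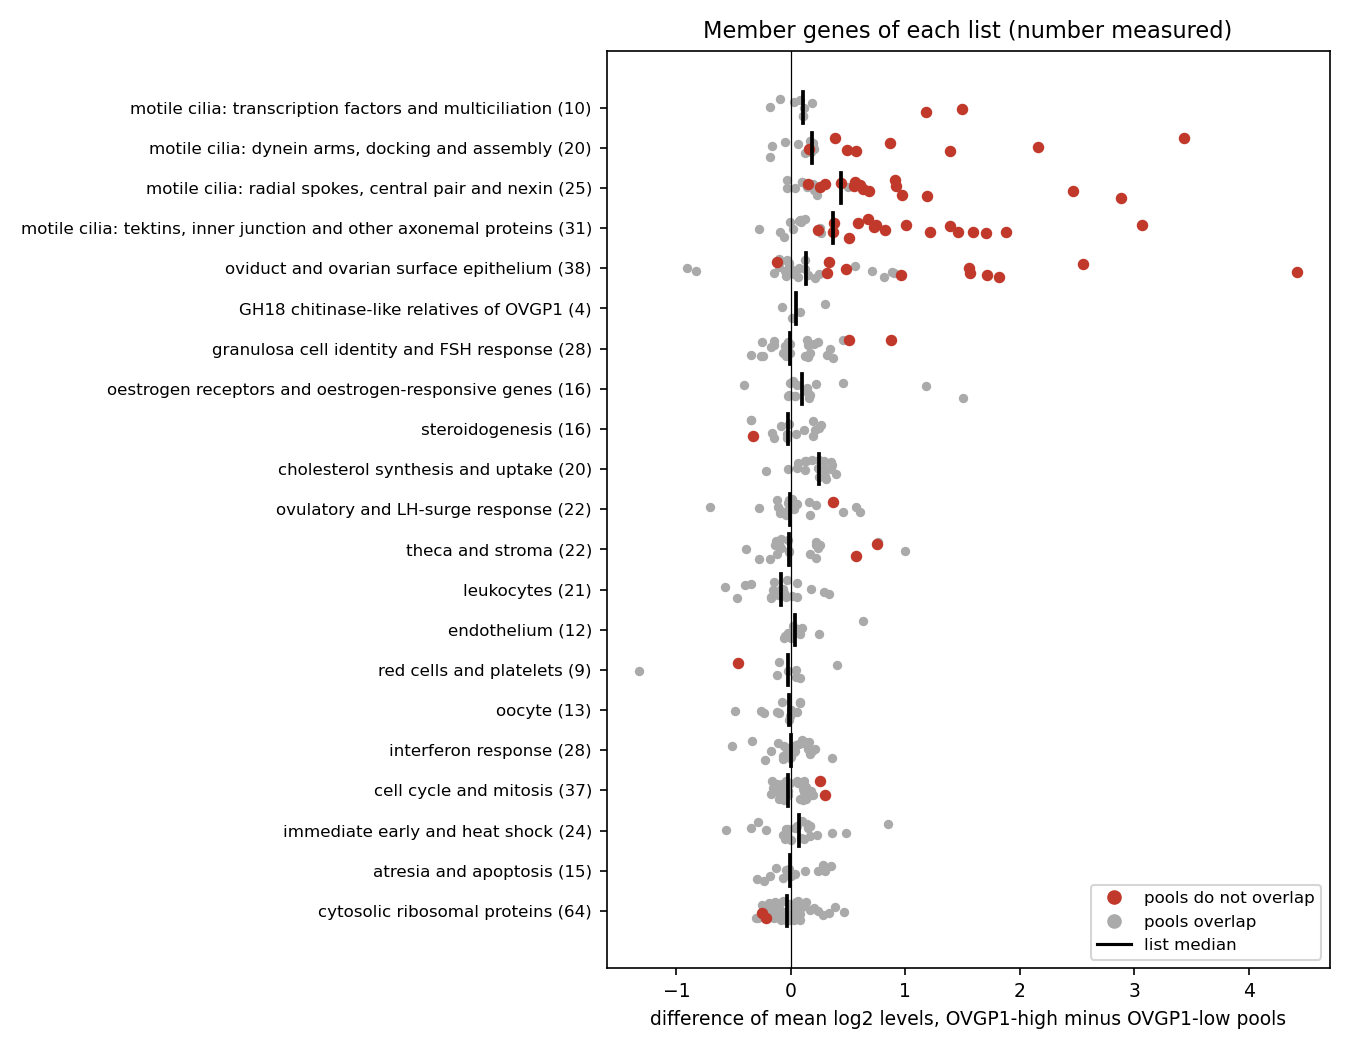
Difference of mean log2 levels between OVGP1-high and OVGP1-low pools (horizontal axis) for the measured genes of each list, with their number in parentheses; red points are genes whose pools do not overlap and black bars are list medians. The 4 motile cilia lists have their red points to the right of 0, and the list of epithelium spreads from -0.91 to 4.42.

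Other genes in the rule for named genes had similar gaps. ENPP3, an enzyme that splits extracellular nucleotides, stood at 10.00, 8.50, 8.998, 9.25 and 10.13 against 6.31, 6.64 and 6.60, a difference of 2.86. ROPN1, a relative of ROPN1L, and CFAP299, a cilia and flagella associated gene, were not above background in any OVGP1-low pool and were at least 6.14-fold and 4.51-fold higher. These bounds set the OVGP1-high mean against the higher of the dimmest level above background and the probe's own level in each OVGP1-low pool. IQCA1, a nexin link gene, differed by 2.40, and by 0.32 for its other probe. PTPRU, a receptor tyrosine phosphatase, differed by 2.11. S100B, a calcium-binding protein, stood at 9.75, 9.77, 9.70, 10.09 and 10.47 against 7.70, 8.18 and 7.96, a difference of 2.00, and its other probe gave 1.26. Of the 64 genes, 12 had further probes, and only S100B had another probe that reached the 2-fold limit. For 8 of the 12 every other probe differed by less than 0.2, so the probes of these genes disagreed in size.

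Over the 8 pools the genes most like OVGP1 by Pearson's r were RARRES1 (0.99), DRC1 (0.98), MORN5 (0.98), ENPP3 (0.98), DAW1 (0.98), ROPN1 (0.98), S100B (0.98) and CHDH (0.97). DAW1 takes part in dynein arm assembly and CHDH encodes choline dehydrogenase. The pools form 2 clusters for OVGP1, so these values mostly restate the split and carry no test. Relatives of OVGP1 in the chitinase family showed no such gap. CHI3L1, a secreted chitinase-like protein, stood at 10.53, 9.81, 9.23, 9.23 and 9.24 against 8.85, 9.97 and 9.11, and pool 5 was above all but pool 1. CHIA, an active chitinase, lay at 6.44 to 6.51 against 6.43 to 6.59, close to the lower quartile of all probes. All 4 measured relatives overlapped, as did 12012 of all 12667 genes, so nothing about the family is read from this.

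Within the OVGP1-low pools, pool 5 often stood above pools 3 and 7 in the epithelial genes, which was noticed in the data and not tested. It was the highest of these pools for 20 of the 38 epithelium genes, for 29 of the 86 cilia genes and for 4386 of all 12667 genes. Pool 5 exceeded the mean of pools 3 and 7 by a median of 0.088 over the 38 epithelium genes and 0.60 over the 6 called ones. Over the 16 called cilia genes the median was -0.02. This was not particular to epithelial genes, as pool 5 was highest for 21 of 28 interferon genes, with a median excess of 0.36. The median was 0.30 for immediate early and heat shock genes and 0.22 for atresia and apoptosis genes. Other lists lay lower, down to -0.21 for cholesterol synthesis and uptake. AGR2, which helps fold mucins, stood at 11.09, 9.95, 9.08, 8.58 and 7.95 against 6.53, 9.68 and 7.28, and TFF3, a mucosal peptide, at 12.38, 10.91, 10.97, 9.21 and 9.50 against 8.08, 10.70 and 9.44. For both genes pool 5 stood above pools 6 and 8, so that the groups overlapped despite differences of 1.503 and 1.19. Among the OVGP1-high pools the brightest for the 16 called cilia genes was pool 1 in 10 cases and pool 8 in 2. Over all 86 cilia genes it was pool 6 in 29 cases, pool 1 in 25 and pool 8 in 19. Of all 12667 genes, pool 1 was brightest for 2828, pool 6 for 2876 and pool 8 for 2155.

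**Figure D4:**
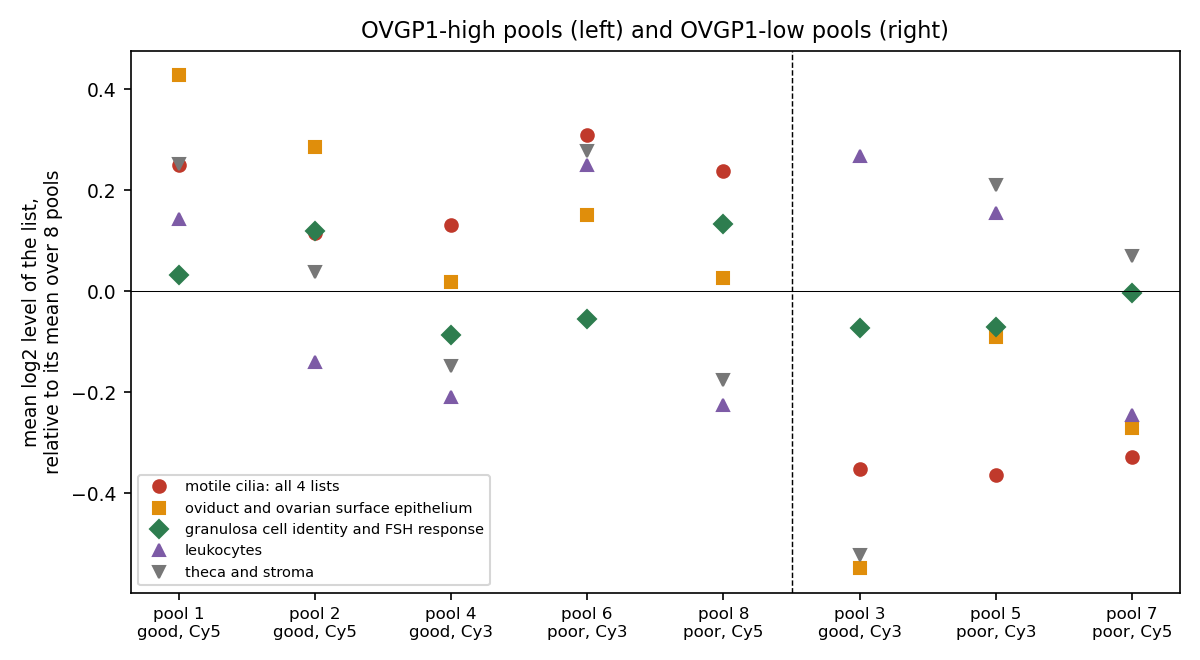
Mean log2 level of 5 gene lists in each pool, each relative to its own mean over the 8 pools (vertical axis), with OVGP1-high pools left and OVGP1-low pools right of the dashed line; each symbol is a list. The cilia list separates the groups with the OVGP1-low pools close together, while in the epithelium list pool 5 lies near the OVGP1-high pools 4 and 8.

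Markers of granulosa cells and of other cell types were set beside the split. Among the 28 granulosa identity genes none was called, the median difference was -0.01, and the desmosomal cadherin DSG2 (0.87) and the transcription factor WT1 (0.51) did not overlap (2 of 28, beside 3.36% of all genes). The other probes of DSG2 differed by -0.040 and 0.024, and those of WT1 by 0.12 and 0.52. The mean level of that list was 10.32 to 10.54 in the OVGP1-high and 10.33 to 10.40 in the OVGP1-low pools. Genes of theca and stroma (22 genes), leukocytes (21), endothelium (12), red cells and platelets (9) and oocytes (13) had no called member. Over all genes 0.505% were called higher and 0.00789% lower, so lists this short, the granulosa list included, would mostly hold none. Their medians were -0.02, -0.08, 0.04, -0.02 and -0.01, and the mean level of each list overlapped between the groups. The part of other cell types in the split was not tested beyond these values.

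Some single markers of those lists differed between pools. HBB, a globin chain of red cells, stood at 7.14, 6.99, 7.27, 7.59 and 7.92 against 9.51, 9.08 and 7.52. Pools 3 and 5 were brightest, and pool 7 was within the OVGP1-high range. CYP17A1, an androgen-forming enzyme of theca cells, lay at 6.42 to 6.49 against 6.44 to 6.52, near the dimmest probes. Of the 22 theca and stroma genes, 2 did not overlap with the OVGP1-high pools above (9.09%, beside 3.36% of all genes). Theca and stroma included FN1, which encodes fibronectin, and COL1A2, a collagen chain, at differences of 1.00 and 0.76 with overlap for FN1 and COL1A2. LYZ, the lysozyme of myeloid cells, and TYROBP, an adaptor of their receptors, differed by -0.57 and -0.47 with overlap. The oocyte gene ZP4 of the egg coat differed by -0.49 with overlap, and the endothelial receptor gene KDR by 0.63 with overlap.

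The oestrogen list was described because OVGP1 is known as an oestrogen-responsive gene of the oviduct. None of its 16 measured genes was called, all overlapped, and the median was 0.10. Over all genes 0.505% were called higher and 12012 of 12667 overlapped, so these counts lie near those shares. AGR2 and TFF3, described above, belong to this list and had its widest differences, 1.503 and 1.19, with overlap. The oestrogen receptor gene ESR2 differed by -0.01, the progesterone receptor gene PGR by 0.22 and GREB1, a growth regulator induced by oestrogen, by -0.03. Steroidogenesis had a median of -0.02 over 16 genes, with none called, again near the share of all genes. STAR, which carries cholesterol into mitochondria, stood at 12.41, 8.50, 10.60, 10.77 and 9.46 against 8.97, 9.91 and 13.22. TIMP1, a protease inhibitor, stood at 12.64, 9.13, 11.42, 11.79 and 9.49 against 8.83, 10.61 and 13.29. Both were brightest in OVGP1-low pool 7 and OVGP1-high pool 1, so they grouped the pools in another way than OVGP1. Lumican (LUM), a proteoglycan of collagen matrix, differed by 0.22 with overlap.

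CD5L, a secreted scavenger-receptor family protein known from macrophages, was the 1 gene called lower. It stood at 7.29, 7.33, 7.39, 7.00 and 6.92 in the OVGP1-high pools and at 8.27, 8.76 and 8.93 in the OVGP1-low pools. No pools overlapped, and the difference was -1.47, with -1.47 on array 1 as well. Without pool 3 there were 11 genes called lower, and without pool 7 there were 7. BTG4, which acts in maternal mRNA decay in oocytes, had the next widest difference among the named genes without overlap below, at -0.95, with pool 3 at 8.13 and pools 5 and 7 at 6.86 and 7.29 against 6.35 to 6.56. GSTM3 and GSTA1, both glutathione transferases, differed by -0.83 and -0.55. GSTM3 was bright in all pools, at 12.02 to 13.09 against 13.37 to 13.68. The other 8 named genes without overlap below were MRPL23, GUCA1A, LOC534630, SORCS3, LOC781059, FMNL1, FGFR1 and PF4, at -0.53 to -0.46. Other probes of LOC534630, SORCS3 and FGFR1 differed by -0.079, 0.049 and -0.063.

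Donor quality was tested with limma on the ratios within arrays, with a dye term and Benjamini-Hochberg adjustment over all probes. No probe passed an adjusted p of 0.05 (0 of 32418, 0% called), and 1888 had an unadjusted p under 0.05. The smallest adjusted p was 0.839. OVGP1 differed by -0.43 between poor and good donors (adjusted p = 0.979). Over the 64 genes called higher the poor minus good differences ranged from -0.96 to 0.16 with a median of -0.31. They were below 0 for 61 genes, and 4 had an unadjusted p under 0.05. Good donors had 3 of their 4 pools in the OVGP1-high group and poor donors 2 of 4, so this direction shares its pools with the split.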

How the data were processed

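Scanner tables hold median spot and local background intensity for the Cy3 and Cy5 wavelengths, as deposited and not normalized per the file headers. The series matrix holds log2 ratios that the authors deposited, with a normalization not stated by any label or header. These correlated with the scanner ratios at 0.970 to 0.980 in size, with slopes of 1.15 to 1.22 and column medians of 0.000466, 0.000223, 0.00262 and -9.92e-05, and put poor donors over good ones on each array. Per the labels' protocols, RNA was amplified linearly over 2 rounds and labelled by direct coupling of the dyes.

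Intensities were corrected by normexp (offset 50), normalized by loess (span 0.3, control spots at weight 0) and Aquantile with limma 3.58.1 in R 4.3.3, and split into 1 level per pool. Kept probes (32418 of 43794) exceeded the mean of 153 negative controls by 2 SD in at least 3 of 8 pools. A gene was its brightest kept probe. Symbols came from the platform annotation for 21790 probes, and 22004 are unnamed here. Names were updated through RefSeq (ARS-UCD2.0): 20068 were current, 1644 updated and 78 kept as given. Of the 87 probes called higher, 20 have no symbol. No coordinates or sequences are given, as no source used here ties the probes to a build. The 4 arrays are areas of 1 slide, so slide was not a batch.

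The split was described by overlap and difference of means. The donor comparison was fitted by limma with a dye term (2 residual degrees of freedom), and its p-values measure the spread between arrays, which may be technical. Named genes were the widest 12 in each direction without overlap and with the same sign within both dyes and on array 1, the 8 most like OVGP1, the widest 2 of each list and a fixed set of markers. The members, lists and rules were chosen with earlier results of these data known. Alternatives were the background, spot summary, normalization, filter, dye weighting, probe rule, fold limit and each pool left out. The scripts were tested on simulated data.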

Additional observations from a re-analysis of the deposited data

Results flagged for a closer look

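Among the 86 named genes, 6 had a pool set apart from the other OVGP1-high pools by Dixon's test of a gap against the range, and chance flags about 1 in 20 groups. DNAAF6 stood at 9.56 in pool 1, where the nearest OVGP1-high pool had 9.18. LOC534630 stood at 9.22 in pool 1, below the nearest at 9.64. SORCS3 had 6.21 in pool 6, below 6.31, and FIGLA, an oocyte factor, had 7.01 in pool 4, above 6.76. In pool 6 the cell cycle phosphatase gene CDC25C had 7.14, above 7.00, and FOXL2 had 6.89, above 6.71. Groups of 3 pools were not tested in this way.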

How the results depend on the processing

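The 64 genes called higher became 21 with mean in place of median intensities, 37 with probes above background in all 8 pools and 128 with a 1.5-fold limit. All 21 were among the 64. With mean intensities the lower quartile of levels lay at 7.23, against 6.30 to 6.31, so dim levels were raised, and the OVGP1 difference was 3.35 in place of 4.33. Background subtraction shared 62 of the 64 genes, median centring 56 and quantile normalization 61. Leaving out a pool gave 60 to 86 genes higher. The 1 gene lower became 3 with background subtraction, 0 with mean intensities, 3 with a 1.5-fold limit, and 1 to 11 without a pool, with 11 without pool 3, 7 without pool 7 and 3 without pool 1 or pool 5. The cilia median of 0.25 became 0.35 with background subtraction, 0.11 with mean intensities and 0.17 with probes above background in all pools. The granulosa median of -0.01 ranged from -0.024 to 0.080 without a pool, the latter without pool 3. Of the values for single genes and other lists, 58 moved by more than the spread between pools and 1332 did not. Mean intensities moved 31 of the named genes and background subtraction 14. Signs turned under some alternative for 11 list medians, each at most 0.072 in size, and for 12 named genes, none of them called. Theca and stroma went from -0.02 to 0.23 without pool 5 and 0.19 without pool 7, steroidogenesis from -0.02 to 0.086 without pool 2, and immediate early genes from 0.07 to -0.04 without pool 1. The epithelium median of 0.14 was 0.036 with mean intensities, 0.063 with no filter, 0.087 without pool 2 and 0.22 without pool 6. The donor fit gave 0 calls under every alternative run. The number of arrays limits precision, and probes near background limit the folds of dim genes.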

Other observations

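Other gene lists showed no called gene between the OVGP1-high and OVGP1-low pools, beside 0.505% of all genes called higher. Cholesterol synthesis and uptake had a median difference of 0.25, with higher means in the OVGP1-high pools for 18 of 20 genes (50.2% of all genes). Every gene of the list overlapped, as did 12012 of all 12667 genes. CYP51A1, an enzyme of sterol synthesis, stood at 13.18, 12.13, 12.74, 12.55 and 12.57 against 12.51, 12.10 and 12.11. Pool 2 was below pool 3, and the difference was 0.39. SREBF2, which switches on sterol genes, differed by 0.36 with overlap, and by 0.041 and 0.070 for its other probes. The list's median was 0.63 on array 1 and -0.40 for pool 7 over pool 3.

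Medians were -0.0046 for the ovulatory response (22 genes), -0.0019 for the interferon response (28 genes) and 0.07 for immediate early and heat shock genes (24). They were -0.03 for the cell cycle (37), -0.01 for atresia and apoptosis (15) and -0.03 for ribosomal proteins (64). TNFAIP6, which helps build the cumulus matrix, ranged from 9.24 to 13.64 in the OVGP1-high and from 10.72 to 11.69 in the OVGP1-low pools. The interferon-induced gene IFI27 was brightest in pools 4 and 3, at 13.36 and 13.02, so it crossed the split. The replication factor MCM5 had no overlap, with a difference of 0.30.

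A few of the 42 called genes outside the cilia and epithelium lists are named here with their values known. FOXA2, a factor of glands and airway epithelium, stood at 8.98, 7.88, 7.13, 8.17 and 7.63 against 6.10, 6.73 and 6.16. Its pools did not overlap, and the difference was 1.63. ANXA8L1, an annexin, differed by 1.85 and NTS, the neurotensin precursor, by 1.49, and pool 5 had the highest OVGP1-low level of both, at 10.21 and 8.22. KRT4, a keratin of stratified epithelium, stood at 9.30, 7.25, 6.43, 8.45 and 6.30 against 6.14, 6.27 and 6.17, with pools 4 and 8 close to the OVGP1-low pools.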
